A study of Mus musculus with 12 samples.

Results

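The genes described here are 10 mouse genes that visceral endoderm is known for: Afp, Ttr and Gc, which encode carrier proteins released into the fluid around the embryo, the apolipoprotein genes Apoa1, Apoa4, Apob and Apoe, the secreted protease gene Habp2, and Amn and Cubn, which encode a pair of uptake receptors. They were taken by name from the 22911 genes of the deposited female and male tables, and all 10 were found in both. The names were picked with the group levels and the mutant to control differences of these same libraries known, so the levels and differences below are descriptions and carry no test. Visceral endoderm is the epithelium that covers the early embryo. Its cells secrete plasma-type proteins and lipoproteins, much as the liver does later, and take up maternal proteins and lipids through endocytic receptors at their free surface. Afp and Ttr are standard markers of the tissue.

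The libraries came from epiblast-like cells (EpiLCs), which are made from embryonic stem cells (ESCs) by 48 h of culture with FGF2 and Activin A and stand for the early postimplantation epiblast, not for endoderm. They fall into 4 groups of 3. Female controls were Kdm5c fl/fl, female mutants Kdm5c Δ/Δ, male controls Kdm5c fl Y and male mutants Kdm5c Δ Y. The fl allele is flanked by loxP sites, so the controls carry an engineered allele too, and the Δ allele lacks exons 11 and 12. Kdm5c, which the labels call Smcx, is an X-linked gene for an enzyme that removes methyl groups from lysine 4 of histone H3. The labels give the strain as C57BL/6J, whereas the authors describe the Kdm5c fl strain as made on a mixed background. Each group was derived from 3 ESC lines that had been grown on feeder fibroblasts earlier. The deposited tables set mutants against controls within each sex. The deposited values are group means, and the reads behind them were recovered library by library. The libraries are called A, B and C within a group in order of falling size factor, and a letter carries no meaning from one group to another.

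The 12 libraries held 5516216 to 11092731 recovered reads, and values are read counts divided by each library's size factor (normalized counts). Kdm5c, counted over the whole gene and not over the deleted exons alone, had 2360 ± 60.7 normalized counts (SD, n = 3) in female controls and 1453 ± 49.7 in female mutants, against 2226 ± 133 and 1938 ± 39.7 in males. The count of the whole gene does not by itself show the deletion. Summed over 8 epiblast markers, the libraries held 14581 to 14803 normalized counts in female controls and 17723 to 18119 in female mutants. Male controls held 16504 to 23738, and male mutant libraries A, B and C held 16240, 12154 and 11974. Each of the 8 markers had reads in every group. At a limma adjusted p under 0.05, 4 of the 8 were higher and 3 lower in female mutants, so the sum does not stand for each marker. In male mutants 4 were lower and the other 4 were not called. Over all genes tested, 25.4% were called higher and 24.7% lower in females, and 4.21% and 3.59% in males. Some male libraries stood apart. Over genes with at least 10 reads in a pair of libraries, the chi-square per degree of freedom between libraries of a group was 1.90 to 4.18 in the females. It was 2.20 between male control libraries A and C but 15.6 and 15.5 between each of them and B, and 2.51 between male mutant libraries B and C but 27.7 and 25.2 between each of them and A. In no pair was it at the sampling level. A value above that level cannot tell separate ESC lines from separate preparations of the same line. Each library was counted separately because each group is described as coming from 3 ESC lines. Of 2769 genes close to 0 in the 9 libraries outside the male controls, 55.9% had a read in male control library A and 50.1% in C, with means of 1.20 and 1.32 normalized counts. The share in library B was 3.14% and the mean 0.0493. A value of a few normalized counts in male control libraries A and C therefore lies near the level of genes that were otherwise silent.

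In females, 8 of the 10 genes were higher in every Kdm5c Δ/Δ library than in any control library, Apoe was lower in every library, and Apoa4 overlapped. In males, 9 of 10 had a higher mean in the mutants, but the libraries overlapped for every gene except Gc. Over all genes tested, 27.6% lay above and 27.2% below in every library in females, and 12.7% and 13.9% in males. The limma fit, at an adjusted p of 0.05 over all genes tested, put the same 8 genes higher and Apoe lower in females, where 25.4% of 19572 genes were called higher and 24.7% lower. It called none of the 10 in males (1 at an unadjusted p under 0.05, and 0 with limma voom), where 4.21% of 21872 genes were called higher and 3.59% lower. These counts are given for completeness, since the genes were picked on these contrasts. The median difference of the 10 genes on the log2(normalized count + 1) scale was 3.18 in females, with a range of -0.48 to 5.18, and 0.58 in males, with a range of -0.20 to 2.87. The medians over all genes tested were 0.00 and -0.16. In bulk RNA, more cells that express a gene and more RNA per cell cannot be told apart.

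**Figure D1:**
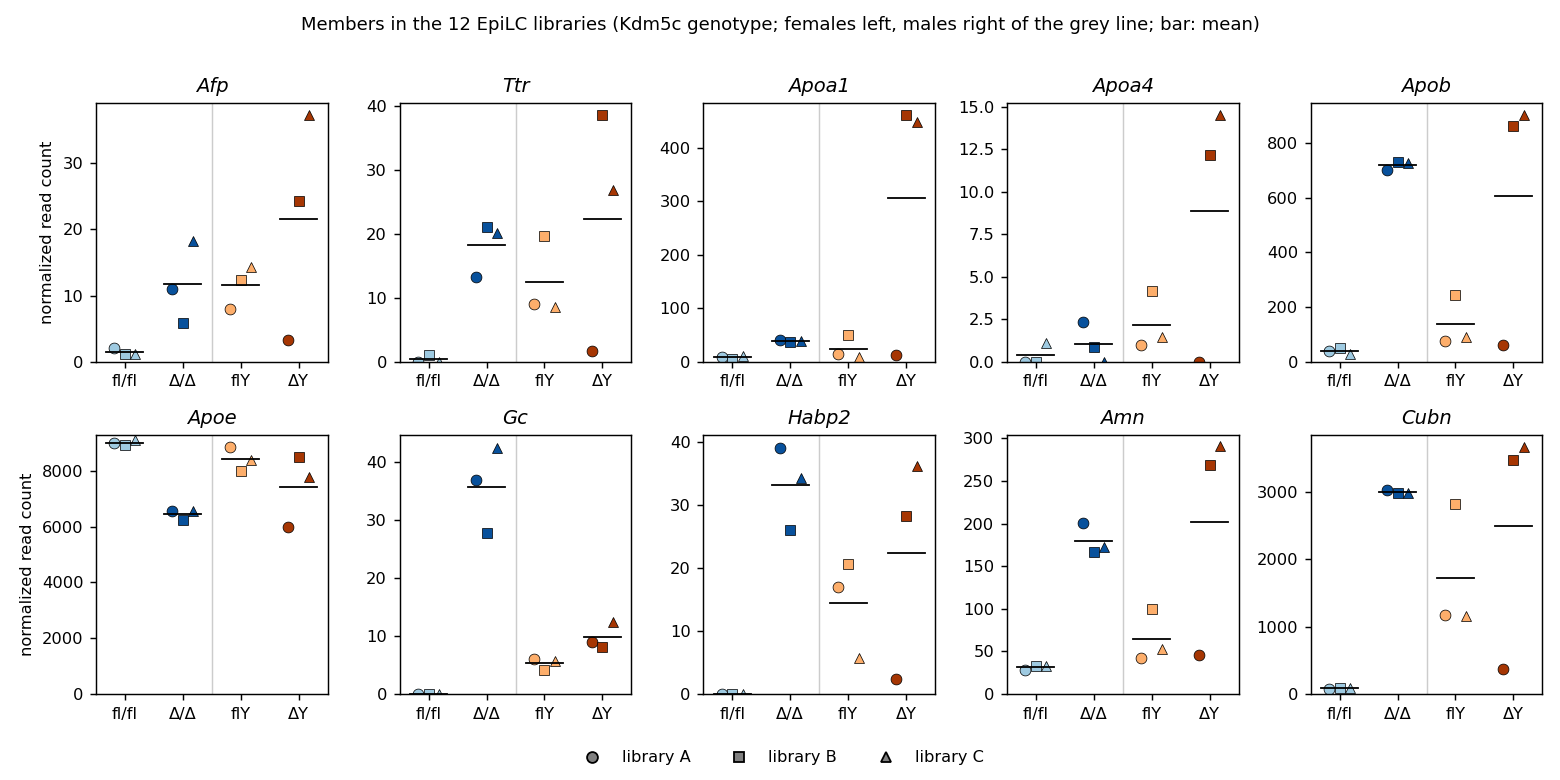
Normalized read count (linear axis from 0) of each of the 10 genes in the 12 EpiLC libraries, with 1 point per library and a bar at the group mean. Female mutant points lie together and above the female controls for 8 genes, Apoe is reversed, and in male mutants library A lies below B and C for 9 of the 10 genes.

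Afp, on mm9 chr5:90919740-90937933 on the plus strand, encodes alpha-fetoprotein, the main serum protein of the fetus and yolk sac. Its normalized counts were 2.01, 1.10 and 1.11 in libraries A, B and C of the female controls and 11.0, 5.89 and 18.2 in the female mutants. In males they were 7.98, 12.4 and 14.4 in the controls and 3.25, 24.3 and 37.2 in the mutants. The female groups did not overlap, while in males the lowest and the 2 highest values were all in mutants. The difference was 2.30 ± 0.44 (log2, limma SE) in females, from 4 reads against 39, and 0.38 ± 0.76 in males. Afp was thus a low gene in every library, at 37.2 normalized counts or less.

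Ttr encodes transthyretin, which carries thyroid hormone and, with retinol-binding protein, vitamin A. It had a single read in the female controls, in library B, and 13.3, 21.0 and 20.2 normalized counts in the female mutants. From 62 reads against 1, the ratio was 50.3 with an exact 95% interval of 8.71 to 2020.2 that covers counting error only. Male controls had 8.97, 19.6 and 8.62 and the male mutants 1.62, 38.5 and 26.9. Male mutant library A was below every control and the other two above every control, and the difference was 0.18 ± 0.92. Exons of Ttr share positions with Gm16090 on the opposite strand, and the sources used here do not say whether reads were counted by strand.

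Gc (chr5:89846549-89886790, minus strand) encodes the vitamin D-binding protein, a relative of albumin and alpha-fetoprotein. No read fell on it in the 3 female control libraries, and the female mutants had 36.8, 27.8 and 42.4 normalized counts. Against a floor of 3 reads over the control group, the mutants were at least 33.4-fold higher. The male controls had 5.98, 4.14 and 5.75 and the male mutants 8.93, 8.11 and 12.4. Gc was the 1 gene of the 10 in which all 4 groups were apart, in the order female mutants, male mutants, male controls and female controls. It was also the 1 gene for which male mutant library A lay between the other two. Its male difference was 0.78 ± 0.48, and the male values rest on 14 and 31 reads.

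Habp2 (chr19:56361627-56395312, plus strand) encodes a hyaluronan-binding serine protease of plasma. It likewise had no read in the female controls, and 39.2, 26.1 and 34.4 normalized counts in the female mutants, at least 31.0-fold above the same floor. In male controls it had 16.9, 20.7 and 5.75 and the male mutants 2.43, 28.4 and 36.2. As for Afp and Ttr, male mutant library A was under every control library and B and C were over them. The male difference was 0.17 ± 0.87. Its exons overlap Nrap on the opposite strand.

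The starts of these genes are shown because Afp, Gc and Habp2 were at or near 0 in female controls and were read in every female mutant library. RefSeq promoters of 300 bases (250 before and 50 after the start, from the GRCm38.p6 table, placed on mm9 by exact match) were found for 9 of the 10 genes, with 11 starts. No promoter entry was used for Ttr. The RefSeq starts do not all match the gene models given above. The start used for Habp2, 56362402, lies inside its gene model, and that for Gc, 89886923, lies upstream of its gene model. The 4 motifs searched on both strands were CAAAGTCC, a core of HNF4 sites, AGATAA for GATA factors, TGTTTA for FOXA factors and the TATA box TATAAA. In the 150 bases before the start, given 5′ to 3′ on the strand of the gene, capitals mark motif matches, in either direction:
Afp, chr5:90919590-90919739, plus strand: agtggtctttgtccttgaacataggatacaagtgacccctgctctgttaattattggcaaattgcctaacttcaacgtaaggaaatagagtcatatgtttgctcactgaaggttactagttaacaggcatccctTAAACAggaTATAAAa
Gc, chr5:89886924-89887073, minus strand: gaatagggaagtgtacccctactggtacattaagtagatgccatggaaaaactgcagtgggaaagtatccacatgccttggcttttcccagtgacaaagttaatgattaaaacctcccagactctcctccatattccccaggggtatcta
Habp2, chr19:56362252-56362401, plus strand: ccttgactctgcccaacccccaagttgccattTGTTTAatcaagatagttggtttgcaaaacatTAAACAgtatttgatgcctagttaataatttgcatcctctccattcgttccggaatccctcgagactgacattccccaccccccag
Cubn, chr2:13413504-13413653, minus strand: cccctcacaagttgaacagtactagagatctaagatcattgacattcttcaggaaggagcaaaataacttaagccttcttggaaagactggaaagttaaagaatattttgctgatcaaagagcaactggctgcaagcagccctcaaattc
TGTTTA or its reverse, TAAACA, was in Afp, in 2 places in Habp2 and in 1 of the 3 Apoe promoters, and in 13.4% of 32851 promoters of the same length. TATAAA was in Afp, Apob and, as 2 overlapping copies, Apoe, and in 13.6% of promoters. The matches did not otherwise overlap each other. CAAAGTCC (1.42% of promoters) and AGATAA (11.2%) were in none of the 11. The Cubn promoter, shown for contrast because Cubn had the largest female mutant level after Apoe, held none of the 4 in this window, and neither did that of Gc. CpG dinucleotides ranged from 0 in Gc, 1 in Apoa4 and 3 in Afp to 15 in Amn, against a median of 7 over all promoters. A match is a string of letters, and binding was not measured.

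Apoa1 and Apoa4 encode the main proteins of high density lipoprotein and of intestinal lipoproteins, and lie 10.2 kb apart on chr9 (46036663-46038549 and 46048779-46051542, both on the plus strand). Apoa1 had 9.05, 5.49 and 10.0 normalized counts in the female controls and 40.8, 37.0 and 39.4 in the female mutants, a difference of 2.16 ± 0.30. The male controls had 14.0, 50.7 and 8.62, and the male mutants 13.0, 461.2 and 447.9. Male mutant libraries B and C were thus far above every other library, while library A was at the level of the controls. The male difference, 2.87 ± 1.20, was the largest of the 10 genes and also the one with the largest error. Apoa4 stayed near 0 in females, with 1 read in the controls and 4 in the mutants (ratio 3.25, exact 95% interval 0.321 to 160, counting error only). It had 0.997, 4.14 and 1.44 normalized counts in the male controls and 0, 12.2 and 14.5 in the male mutants. Male mutant libraries B and C thus held the highest levels of both neighbouring genes. The exons of Apoa4 overlap Gm10680 on the opposite strand.

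Apob (chr12:7984454-8023641, plus strand) encodes the structural protein of very low density lipoproteins. The female controls had 40.2, 51.6 and 26.7 normalized counts and the female mutants 702.2, 731.5 and 725.6, which is 18.2-fold on the means and 4.20 ± 0.16 on the log2 scale. Male controls had 75.8, 244.0 and 89.1 and male mutants 60.9, 860.5 and 902.0. Among male controls library B was the high one, and male mutant library A was below all 3 controls. The male difference was 1.61 ± 0.90.

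Apoe (chr7:20281458-20284515, minus strand), which encodes a lipoprotein ligand for endocytic receptors and is made by many cell types, stood apart in level and in direction. The female controls had 9000.3, 8928 and 9127 normalized counts and the female mutants 6549, 6244 and 6566, a decrease to 0.716 of the control mean (log2 difference -0.48 ± 0.05). In males the controls had 8872, 8014 and 8406 and the male mutants 5976, 8513 and 7790. Male mutant library A was again the lowest and lay below every female mutant library too. The male difference was -0.20 ± 0.15. Apoe was the 1 gene of the 10 with its highest mean in female controls.

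Amn and Cubn encode amnionless and cubilin, which form the cubam complex. Cubilin binds vitamin B12 with intrinsic factor, albumin and apolipoprotein A-I, and amnionless anchors it in the membrane. Amn (chr12:112509322-112514637, plus strand) had 28.2, 32.9 and 33.4 normalized counts in the female controls and 200.6, 166.7 and 172.8 in the female mutants, a difference of 2.48 ± 0.15. The male controls had 41.9, 99.2 and 53.2 and the male mutants 45.4, 268.6 and 290.7, a difference of 1.32 ± 0.63. Cubn (chr2:13197965-13413551, minus strand) had 79.5, 82.3 and 90.0 in the female controls and 3022, 2987 and 2990.2 in the female mutants. That is 35.7-fold on the means and 5.14 ± 0.07 on the log2 scale, from 235 reads against 10364, so counting error is small. The male controls had 1178, 2815 and 1157 and the male mutants 362.8, 3477 and 3663. Both receptor genes were high in male control library B and in male mutant libraries B and C. In library A of the male mutants Cubn was below every male control but still above every female control. The male difference of Cubn was 0.09 ± 0.77. The exons of Cubn overlap Gm13270 on the opposite strand.

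**Figure D2:**
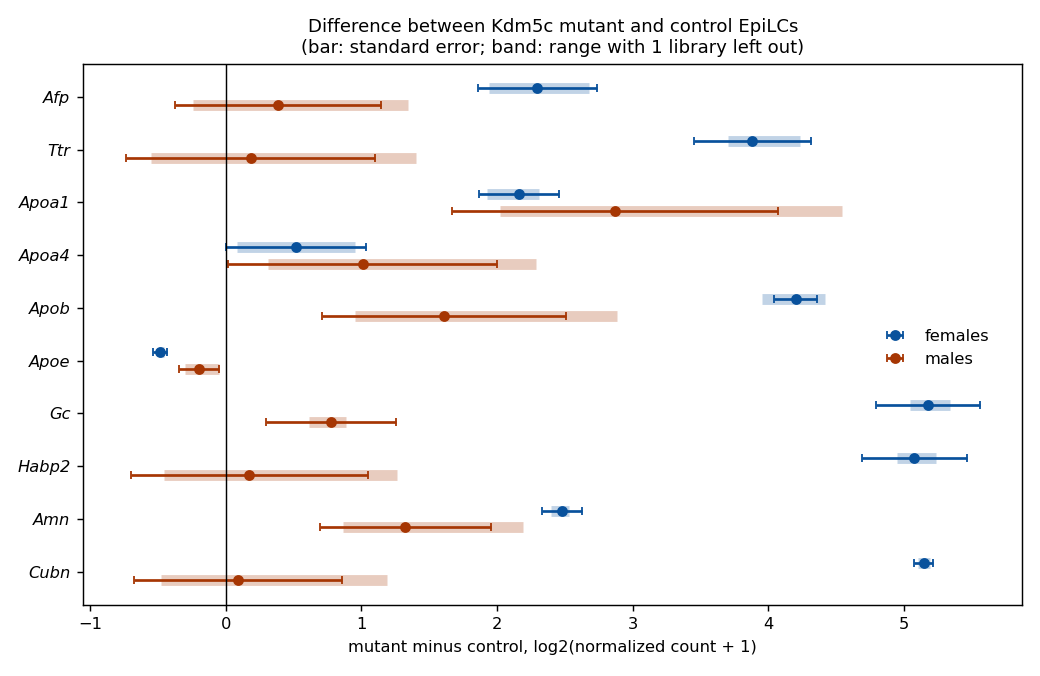
Mutant minus control on the log2(normalized count + 1) scale for each gene in females and males, with the limma standard error as the thin bar and the range of the value with 1 of the 6 libraries of a sex left out as the broad band. The female points lie between -0.48 and 5.18 with narrow bands, and the male bands of Afp, Ttr, Habp2 and Cubn cross 0.

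In males the differences turned on single libraries. Male mutant library A had the lowest value of its group for 9 of the 10 genes, and male control library B the highest of its group for 7. Without male mutant library A the log2 difference was 4.54 ± 0.56 for Apoa1, 2.89 ± 0.40 for Apob, 2.29 ± 0.63 for Apoa4, 2.19 ± 0.31 for Amn and 1.19 ± 0.32 for Cubn. The fit then called these 5 genes higher, and 9.76% of all genes tested. That count is no test either, since the genes were picked on these contrasts. The values were 1.40 for Ttr, 1.34 for Afp, 1.26 for Habp2, 0.83 for Gc and -0.05 for Apoe. Without library B of the male mutants the differences of Ttr, Habp2 and Cubn became -0.55, -0.29 and -0.44, and without library C those of Afp, Ttr, Habp2 and Cubn became -0.24, -0.30, -0.46 and -0.48. Leaving out a control moved the same genes. Without male control library A, Cubn was at -0.12, and without C, Ttr, Habp2 and Cubn were at -0.01, -0.34 and -0.13. Without male control library B, Cubn was at 0.51, Habp2 at 0.50 and Apoa1 at 3.57. Apoa1, Apoa4, Apob, Amn and Gc had a positive male difference with any 1 library left out, and Apoe a negative one. The differences between the female and male values were not tested.

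Per kilobase of exons, the scale on which levels of different genes can be set side by side, Apoe was the highest of the 10 in each group, at 4555 ± 51.1 normalized counts per kb in female controls and 3259 ± 91.4 in female mutants. In female controls Amn (18.7 ± 1.71), Cubn (7.11 ± 0.463) and Apoa1 (6.62 ± 1.93) followed, and Cubn and Apoa1 overlapped. In female mutants the order was Cubn (254 ± 1.62), Amn (107 ± 10.7), Apob (51.7 ± 1.11), Apoa1 (31.6 ± 1.52) and Gc (21.4 ± 4.44), whose libraries did not overlap from one gene to the next. Ttr (14.9 ± 3.48) came next and overlapped Gc, and Habp2 (10.4 ± 2.07) overlapped Ttr. Afp was at 5.60 ± 2.96 per kb and Apoa4 at 0.586 ± 0.656. In female mutants the receptor pair was thus above each of the secreted members other than Apoe. In male mutants the spread within the group was too wide for an order, with Cubn at 30.7, 294 and 310.0 per kb and Apoa1 at 10.5, 373 and 362.

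**Figure D3:**
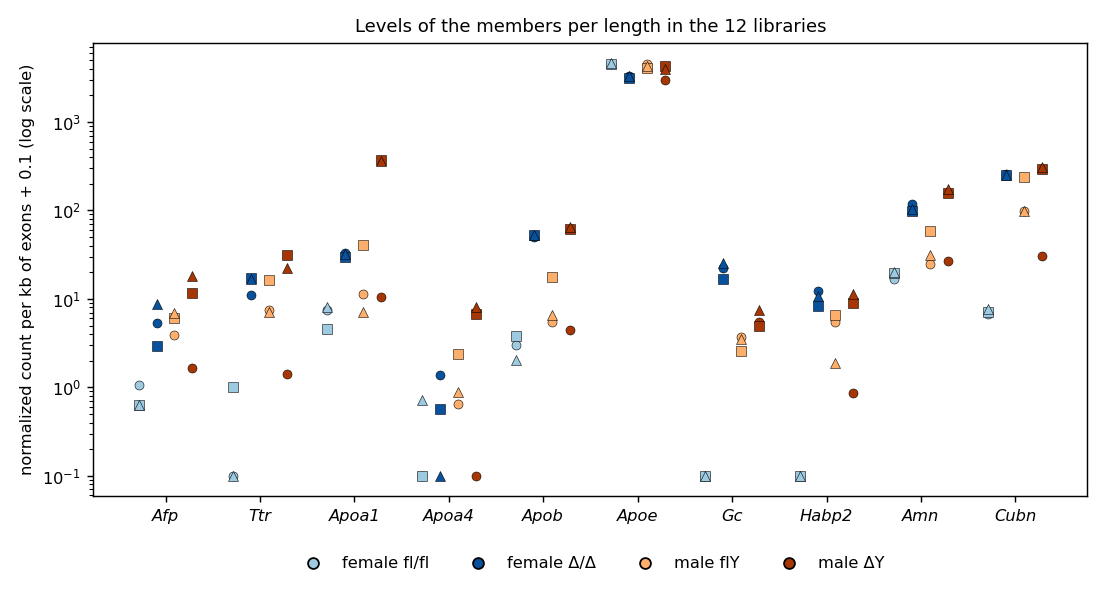
Normalized count per kb of exons plus 0.1 on a log axis for each gene, 1 point per library with circles, squares and triangles for libraries A, B and C and colours for the groups. Apoe lies above 3000 per kb in every library, and the other genes span from no read to 373 per kb.

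The libraries differed in markers of other cell types along with these genes. Of the visceral endoderm markers that are not among the 10 genes, Hnf4a, a nuclear receptor gene of visceral endoderm and liver, had 2.20 to 5.03 normalized counts in female controls and 34.5 to 44.7 in female mutants. In males it had 19.9, 42.4 and 10.1 in the controls and 2.43, 95.3 and 105.5 in the mutants, with the same libraries high. Summed over 5 parietal endoderm markers, the libraries held 225 to 247 normalized counts in female controls, 1945 to 2070.4 in female mutants, 892 to 1098 in male controls, and 221, 592 and 624 in male mutants. Male mutant libraries B and C had the highest visceral sums, 4848 and 5105 over 8 markers, with parietal sums below those of the male controls. The 8 visceral markers include 5 of the 10 genes, and Cubn alone held 3477 and 3663 of those sums. In mutants the visceral sum thus mostly restates levels on which the genes were picked. The 7 feeder fibroblast markers summed to 2253 to 2302 in female controls, 749 to 813 in female mutants, 560 to 824 in male controls and 4167 to 4663 in male mutants. Of these 7 markers, Dcn and Lum were at or under 8.78 in every library. The limma fit called 4 of the 7 higher and 0 lower in male mutants, and 0 higher and 3 lower in female mutants. Markers of naive ESCs (8 genes) summed to 720.3 to 780.4 in female controls, 2417 to 2577 in female mutants, 1002 to 2214 in male controls and 3359 to 5080 in male mutants. The 6 trophoblast markers summed to 145 to 203 in females, 110 to 216 in male controls and 491 to 1195 in male mutants. Of these 6, 3 were called higher and 1 lower in male mutants, against 4.21% and 3.59% of all genes tested. Prl3d1 had no read in male mutants. Erythroid markers summed to 5.98 or less. The 7 liver and gut markers summed to 1546 to 1655 in female controls and 2878 to 3746 in female mutants. In males they summed to 1015 to 2299 in controls and 411 to 1305 in mutants. Cyp3a11, Tat and Tdo2 had no read in any female library but had reads in male controls. Cyp2e1 had 353 to 3668 across all 12 libraries. Of the 4 markers tested in females, 2 were called higher and 1 lower in mutants. The part of these cell types in the differences was not tested.

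**Figure D4:**
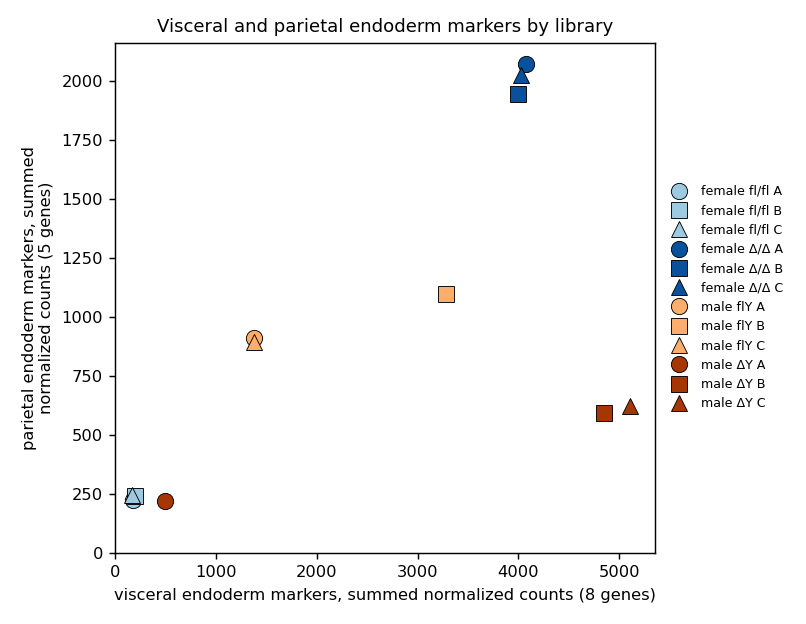
Summed normalized counts of 8 visceral endoderm markers (horizontal, including 5 of the 10 genes) against 5 parietal endoderm markers (vertical), 1 point per library, both axes linear from 0. In the mutants, Cubn makes up most of the horizontal sum. Female mutants lie at 4001 to 4071 and 1945 to 2070.4, female controls and male mutant library A nearest the origin, and male mutant libraries B and C at 4848 and 5105 with 592 and 624 parietal counts.

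Other genes of the same processes were taken from lists of general knowledge. The shares to set beside each list are those over all genes tested. In females 25.4% were called higher and 24.7% lower, and in males 4.21% and 3.59%. Of 20 other secreted and carrier genes with reads in females, 10 rose and 0 fell in the mutants, also at an unadjusted p under 0.05 and with limma voom (median log2 difference 1.17, against 0.00 over all genes tested). The highest were Spink3, a trypsin inhibitor gene of gut endoderm, at 11.5 ± 1.58 in controls and 157 ± 7.65 in mutants (log2 difference 3.68 ± 0.19, limma adjusted p = 2.69e-11), the transferrin gene Trf, at 29.2 ± 8.10 and 150 ± 4.66 (2.36 ± 0.19, limma adjusted p = 6.41e-09), and Ttpa, which encodes a vitamin E carrier, at 22.1 ± 2.79 and 82.3 ± 8.41 (1.86 ± 0.20, limma adjusted p = 3e-07). Alb, the albumin gene, which lies 14.1 kb from Afp, had no read in female controls and a single mutant library with 1.01 normalized counts. In males 0 of 23 passed the limma test (median -0.01), against 6 at an unadjusted p under 0.05 and 0 with limma voom. Spink3 had 66.8, 98.2 and 58.9 normalized counts in male controls and 13.8, 203.7 and 205.8 in male mutants, the pattern of Cubn and Apob. Without male mutant library A, 8 of the 23 rose, against 9.76% of all genes tested.

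Among 16 genes of the uptake machinery, 8 rose and 7 fell in female mutants (median 0.19). Lrp2, which encodes megalin, the partner of cubilin at the endocytic surface, rose from 2134 ± 43.9 to 7196 ± 105 (1.75 ± 0.05, limma adjusted p = 8.25e-15). Dab2, an adaptor gene for megalin, rose from 266 ± 12.5 to 1263 ± 22.0 (2.24 ± 0.06, limma adjusted p = 5.89e-15), and Lrpap1, a chaperone gene for these receptors, from 578 ± 24.0 to 1536 ± 17.7 (1.41 ± 0.06, limma adjusted p = 9.02e-13). Lrp1, a related receptor gene of many cell types, fell from 1544 ± 40.2 to 639 ± 17.2 (-1.27 ± 0.06, limma adjusted p = 2.78e-12). Gipc1 fell by 0.61 on the log2 scale. In female controls Lrp2 was thus read far more than Cubn, which had 90.0 normalized counts or less there. In males 2 rose and 1 fell. Folr1, a folate receptor gene, rose from 130.02 ± 22.7 to 421 ± 50.6 (1.69 ± 0.17, limma adjusted p = 0.000816), Lrp1 rose by 0.50 (limma adjusted p = 0.0279), and Abcd4, needed for lysosomal export of vitamin B12, fell by 0.59 (limma adjusted p = 0.0308). The male calls of Lrp1 and Abcd4 did not pass without control library A or C or mutant library B or C. That of Folr1 passed with any 1 library left out. Lrp2 had 3224 to 4394 in male controls and 4222 to 5118 in male mutants, with library A the highest, unlike Cubn.

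Of 15 genes of lipoprotein assembly and handling, 5 rose and 3 fell in female mutants (median 0.21). Over all genes tested, 25.4% were called higher and 24.7% lower, so these counts lie near the general share. Mttp, which encodes the transfer protein that loads lipid onto apolipoprotein B, rose from 122 ± 13.5 to 339 ± 22.7 (1.47 ± 0.10, limma adjusted p = 8.14e-10). P4hb, the gene of its partner subunit, rose by 0.32 on the log2 scale and Soat2, a cholesterol esterifying enzyme gene, by 1.11. Pltp and Lpl, which encode proteins that act on lipoproteins outside the cell, fell by 1.48 and 1.37, and Soat1 fell by 0.37. In males Abca1, a cholesterol exporter gene, rose by 0.72 (limma adjusted p = 0.0386) and Soat1 fell by 0.57 (limma adjusted p = 0.0244), and the other 12 genes tested did not pass. Mttp had 313, 385 and 312 in the male controls and 112, 571 and 588 in the male mutants, so mutant library A was the lowest and B and C the highest, as for Apob. Both male calls were lost without control library A or C or mutant library B or C, and that of Abca1 also with limma voom.

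Of 14 endoderm transcription factor genes, 11 rose and 0 fell in female mutants, with a median of 3.18, and 1 fell at an unadjusted p under 0.05 but 0 with limma voom. Gata4 rose from 67.6 ± 9.96 to 845 ± 27.9 (3.63 ± 0.10, limma adjusted p = 3.41e-15), Gata6 from 35.4 ± 3.78 to 619 ± 55.4 (4.09 ± 0.11, limma adjusted p = 4.66e-15) and Sox17 from 43.4 ± 10.6 to 495 ± 14.6 (3.51 ± 0.13, limma adjusted p = 4.37e-13). In males Foxa3 rose by 1.76 (limma adjusted p = 0.0371) and Sox17 fell by 2.14 (limma adjusted p = 0.0469), and the other 12 did not pass. The call of Foxa3 was lost with limma voom and without control library A or C or mutant library B or C, and that of Sox17 without any 1 control library. Sox17 had 285, 296 and 267 in the male controls and 19.5, 116 and 111 in the male mutants, and Gata6 310.1, 412 and 296 against 39.8, 212 and 205. In male mutant libraries B and C, Apob and Apoa1 were thus at or above their female mutant levels while Gata6 and Sox17 were below theirs.

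Of 16 other visceral endoderm genes, 10 rose and 4 fell in female mutants (median 1.36). Pdgfra, a receptor gene of primitive endoderm, rose by 4.10, Dpp4 by 3.97 and Amot by 1.74, and Cldn6, Tdgf1 and Epcam, which the epiblast expresses as well, fell by 0.45, 0.39 and 0.14, Epcam no longer past the threshold without control library A or C or mutant library C. In males Pdgfra fell by 1.81 (limma adjusted p = 0.0160) and 0 rose (3 at an unadjusted p under 0.05, and 0 with limma voom). Of 13 parietal endoderm genes in the deposited values, 9 entered the fits, and the counts leave out the rest. Of these 9, 8 rose and 0 fell in female mutants (median 2.77). The 0 that fell held at an unadjusted p under 0.05 and with limma voom. Col4a2 was higher by 2.89, Pth1r by 2.77 and Sparc by 1.94. In males Vim rose by 0.60 (limma adjusted p = 0.0276), and Plat, Thbd and Fst fell by 2.40, 2.07 and 1.88 (limma adjusted p = 0.000281, 0.000926 and 0.00364). Of these male calls Plat, Thbd and Fst passed with any 1 library left out, Pdgfra was lost without any 1 control library (limma adjusted p = 0.0794, 0.0521 and 0.0889 without A, B and C), and Vim without control library A or C or mutant library B or C. Plat and Thbd were low in all 3 male mutant libraries, which differs from the pattern of the 10 genes.

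Some chromosomal neighbours of the secreted genes were called, in either direction, and others were not. In females 2 of 3 neighbours tested at the Apoa1 cluster, 3 of 5 at Apoe and 2 of 4 near Afp were not called. In males 3 of 4, 4 of 5 and 3 of 4 were not called there, nor were the 2 near Gc. Over all genes tested, 25.4% were called higher and 24.7% lower in females, and 4.21% and 3.59% in males. Of 3 neighbours tested at the Apoa1 cluster in females, Pafah1b2 rose, by 0.38 (limma adjusted p = 2.49e-05), and in males by 0.49 (limma adjusted p = 0.0366). At Apoe, whose own level was lower, Clptm1 rose by 0.51 and Apoc2 by 1.74 in females (limma adjusted p = 9.17e-07 and 0.00407), and Clptm1 by 0.81 in males (limma adjusted p = 0.00848). Near Afp, Afm, the gene of a vitamin E-binding relative of albumin, went from no read to 4.64 ± 1.12 in female mutants (limma adjusted p = 7.56e-05). Rassf6, the next neighbour tested, fell from 55.9 ± 3.03 to 7.40 ± 2.54 in females and from 87.3 ± 28.3 to 21.0 ± 1.48 in males (limma adjusted p = 2.07e-07 and 0.00882). Among these male calls that of Pafah1b2 was lost without control library A or C or mutant library B or C, that of Rassf6 without control library A or C, and that of Clptm1 without control library C. Both neighbours of Gc, Slc4a4 and Npffr2, fell in female mutants, by 1.04 and 1.69 (limma adjusted p = 7.53e-05 and 0.00496).

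Across the 12 libraries, each gene was set against the mean standardized level of the other 9. Pearson's r was 0.95 for Ttr, 0.93 for Cubn and Amn, 0.92 for Afp and Habp2, 0.91 for Apob, 0.86 for Apoa1, 0.72 for Apoa4, 0.68 for Gc and -0.40 for Apoe. These values are descriptions over 12 libraries that share groups, so no p is given. Of 14123 genes averaging 10 normalized counts or more over the libraries, the 10 most like the mean of the 10 genes were Podxl, Hnf4a, Muc13, Plod1, B4galnt3, Acp6, Prss12, Spink3, Mttp and Dab2, with r from 0.97 to 0.98. Podxl, which encodes a sialomucin of apical membranes, had 806 to 902 normalized counts in female controls and 1808 to 1884 in female mutants. Its male values were 1694, 1913 and 1588 in the controls and 1227, 2605 and 2713 in the mutants. Muc13, a membrane mucin gene, had 1.11 to 3.29 in female controls, 53.0 to 58.6 in female mutants and 4.06, 137 and 135 in male mutants. The 5 least alike were Psme4, Gria4, Chd7, Wnt8a and Ptchd1, with r from -0.99 to -0.98. Wnt8a, a signalling gene of the epiblast and early primitive streak, had 329 to 395 in female controls, 21.9 to 41.2 in female mutants, and 167, 21.3 and 16.5 in male mutants.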

How the data were processed

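RNA of 12 EpiLC samples was sequenced from rRNA-depleted, strand-specific libraries as 50 bp single-end reads. The authors aligned reads to mm9 with TopHat2 2.1.0 (at most 1 mismatch, unique hits), counted them per gene and normalized them with DESeq. The deposited values used here are mean normalized signal per gene and group in 2 tables of 22911 genes. Their fold changes and p-values from the authors' own comparisons were not used. Since normalized counts are whole reads divided by a size factor, the reads of each library were solved from the group means (Python 3.11.15, numpy 2.4.6). Genes with a group mean over 10000 were left out, and 22808 genes were recovered in all 12 libraries. Recovered libraries could not be matched to single samples of the labels. Size factors were 0.696 to 1.28.

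Values were compared within each sex with limma 3.58.1 (R 4.3.3), with an intensity trend on log2(normalized count + 1), over genes with a read in any of the 6 libraries, with Benjamini-Hochberg adjustment and a threshold of 0.05. Fold changes on this scale understate low genes. The p-values measure the spread between 3 samples a group, described as coming from 3 ESC lines, which the counts could not check. On simulated reads of 3000 genes per group, the step that solves the reads was right for 100%. The limma fit was also run on simulated counts with the same spread in every library. That run does not cover single libraries that stand apart, as in males, or changes in genes near 0. The 10 genes and all lists were chosen with earlier results of these data known. Named list genes are those past the threshold, at most the 3 higher and 3 lower ones with the highest mean, and 1 gene of the uptake list that met the rule is not reported here. The 10 most and 5 least alike genes by correlation were also named. Gene models came from GENCODE vM1. The alternatives were a pseudocount of 0.1, a minimum mean of 10, limma voom, median-of-ratios and upper quartile scaling, and leaving out each library.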

Additional observations from a re-analysis of the deposited data

Results flagged for a closer look

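For 8 of the list genes named above, every female mutant library lay on one side of the female controls and every male mutant library on the opposite side of the male controls. Over all genes tested, 27.6% lay above and 27.2% below in every library in females, and 12.7% and 13.9% in males. The share of all genes on opposite sides in females and males is not given here. The difference between the sexes was not tested for any of the 8 genes. Of the endoderm transcription factors, Gata6 differed by 4.09 (log2, mutant minus control) in females and -1.47 in males, and Sox17 by 3.51 and -2.14. The receptor gene Pdgfra differed by 4.10 and -1.81. Of the parietal endoderm genes, Fst differed by 2.20 in females and -1.88 in males, Plat by 3.27 and -2.40, Thbd by 3.50 and -2.07, and Sparc by 1.94 and -0.61. Lrp1, of the uptake machinery, went the other way, with -1.27 in females and 0.50 in males. None of the 10 secreted and uptake genes was among these.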

How the results depend on the processing

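In females, 9 of the 10 genes kept a positive difference and Apoe a negative one under each alternative that could be fitted, with 8 of them called higher throughout except at a minimum mean of 10, which left 7 of the genes to fit, 6 of them called higher. The genes were picked on these contrasts, so their calls under any setting are given for completeness and carry no test. With a pseudocount of 0.1 the female differences of the genes at or near 0 in controls grew, to 8.46 for Gc, 8.36 for Habp2 and 6.29 for Ttr, which shows that these values depend on the pseudocount. Calls over all genes in females ranged from 8811 to 9138 with 1 library left out, against 9799 with all libraries, and those of the lists from 62 to 66, against 66. In males the counts rested on single libraries. Calls over all genes were 1705 with all libraries and 333 to 4691 with 1 left out, namely 413, 4691 and 333 without control library A, B or C and 4310, 595 and 527 without mutant library A, B or C. Of the list genes 12 were called in males, and 4 to 41 with 1 library left out, 41 of them without mutant library A. The other 5 settings gave 1338 to 1753 male calls. With limma voom the male differences of Ttr and Habp2 turned to -0.07 and -0.09. Of the male calls named above, those of Folr1, Plat, Thbd and Fst passed under every alternative, and Sox17 was lost with a pseudocount of 0.1 and with a minimum mean of 10. No paired analysis was possible because the recovered libraries carry no replicate number of the labels. Genes with 4 reads or fewer in a group, such as Afp, Ttr and Apoa4 in female controls, are limited by depth.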
